A study of Tupaia belangeri chinensis with 12 samples.

Results

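The outer subventricular zone (OSVZ) of the fetal cortex was compared with the ventricular zone (VZ) in the Chinese tree shrew, a small mammal related to primates. The comparison uses 6 of 12 poly(A) RNA-seq libraries, the 3 of OSVZ and the 3 of VZ, chosen by the layer in each sample's title. The other libraries, 3 each of the inner subventricular zone (ISVZ) and the cortical plate (CP), entered the same model and are used here for the order of the layers. The labels give no treatment or genotype and embryonic day 37 for every sample, although file names of the tables read day 35. Strips of each layer were cut by laser from Nissl-stained frozen sections, so a library holds the RNA of every cell in its strip. The labels do not say whether the 3 libraries of a layer, or libraries of different layers with 1 replicate number, came from the same animals, and the spread that the p-values rest on may be technical.

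The VZ lines the lateral ventricle and holds apical radial glia, the neural stem cells of the cortex, which are joined to each other by adherens junctions at the ventricular surface and carry a primary cilium there. Some of their daughters leave the surface and divide again as intermediate progenitors or as outer (basal) radial glia in the subventricular zones. The OSVZ is the outermost of these germinal layers, is thick in primates and other species with a large cortex, and is also crossed by newborn neurons migrating to the CP and by growing axons. A difference between the strips can therefore come from fewer cells of a type or from less RNA per cell, and in bulk tissue these cannot be told apart.

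Levels are scaled FPKM, the deposited fragments per kilobase of gene and per mapped fragment total after 1 further factor per library (0.947 to 1.06). Differences are OSVZ minus VZ on the scale of log2(scaled FPKM + 1), which understates the change of genes near or below 1, and are given ± SE. A gene is called when its adjusted p in limma is under 0.05. Genes at 1 or more in at least 3 of the 12 libraries were tested, 14101 in all. Relative depth, read from the deposited bounds, ranged from 0.714 in VZ 1 to 1.60 in OSVZ 3, and the bounds lay a median of 5.63% to 8.67% from the value. Across genes, Pearson's r was 0.956 to 0.969 between VZ libraries, 0.947 to 0.974 between OSVZ libraries and 0.867 to 0.926 between the layers. Genes are not independent replicates, so these values are a description.

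Of the 14101 genes, 4505 (31.9%) were called, 1937 (13.7%) higher and 2568 (18.2%) lower in OSVZ. Differences of at least 2-fold were seen for 582 genes called higher and 776 called lower, and of at least 4-fold for 70 and 106. The 3 OSVZ libraries did not overlap the 3 VZ libraries for 6224 genes (44.1%), among them 1820 of those called higher and 2413 of those called lower. Without VZ 2 the number called was 2859, 1279 higher and 1580 lower, and without both VZ 1 and VZ 2 it was 645, 211 higher and 434 lower, with VZ 3 as the only VZ library, assumed to vary like the others. The median difference of all tested genes was -0.02.

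**Figure D1:**
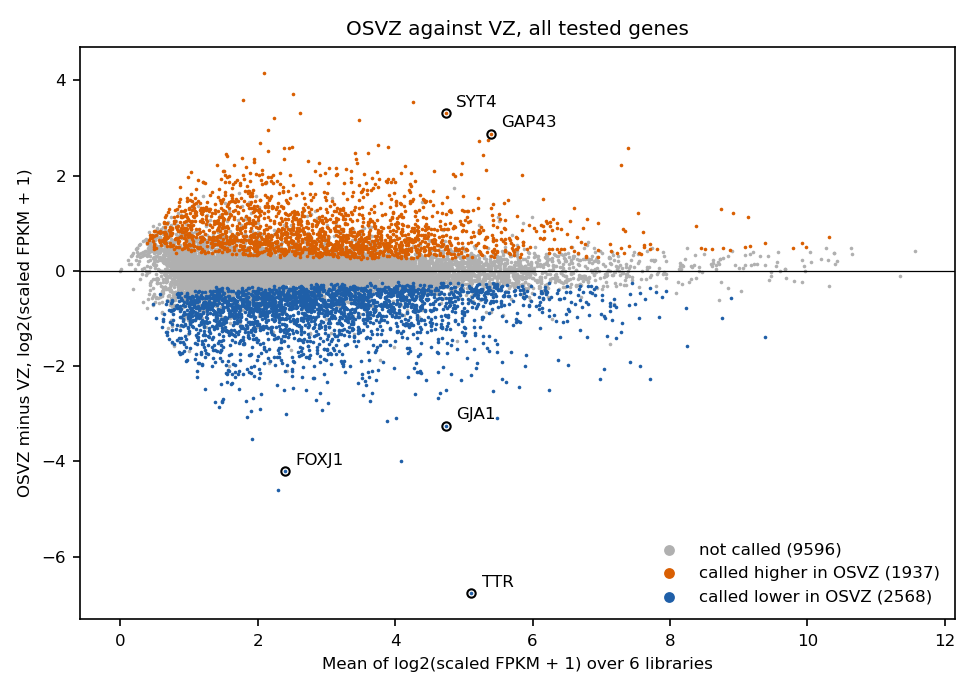
Mean level of each tested gene over the 6 libraries (x, log2 of scaled FPKM plus 1) against its difference OSVZ minus VZ (y, log2). Orange points are the 1937 genes called higher, blue points the 2568 called lower and grey points the rest. The genes far below 0 include TTR, FOXJ1 and GJA1, and those far above 0 include SYT4 and GAP43.

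The layer labels were checked against defining genes. SOX2, a transcription factor of neural stem cells, was at 156, 158 and 156 in VZ 1 to 3 and 40.9, 44.8 and 40.8 in OSVZ 1 to 3 (log2 difference -1.87 ± 0.21, adjusted p = 0.000477). VIM, the intermediate filament of radial glia, was at 232, 293 and 310.1 in VZ 1 to 3 and 65.9, 49.1 and 54.6 in OSVZ 1 to 3 (-2.28 ± 0.23, adjusted p = 0.000354). Both were lower in every OSVZ library than in any VZ library. NEUROD2, a transcription factor of young projection neurons, was at 25.1, 7.32 and 20.8 in VZ and 110.1, 101 and 64 in OSVZ (2.43 ± 0.35, adjusted p = 0.00115). NEUROD6, its close relative, was at 142, 26.4 and 95.7 in VZ and 435, 375 and 233 in OSVZ (2.22 ± 0.43, adjusted p = 0.00453). NEUROD6 differed by 1.55 without VZ 2. PAX6, a regulator of cortical progenitors, was at 28.6, 21.1 and 36 in VZ and 18.6, 14.4 and 13.3 in OSVZ (-0.83 ± 0.21, adjusted p = 0.0141), a call lost without OSVZ 3 (adjusted p = 0.0596) and without VZ 3 (0.0678). EOMES, the marker of intermediate progenitors, overlapped between the layers at 66.8, 41.9 and 63.1 in VZ and 55.1, 38.4 and 38.9 in OSVZ (-0.36 ± 0.19, adjusted p = 0.183). Stem cell genes were thus higher in the libraries labelled VZ and neuronal genes in those labelled OSVZ, where stem cell genes were still measured.

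Markers of other cells differed between the strips and among the VZ libraries. The summed level of 5 choroid plexus markers was 555.7, 2664 and 37.1 in VZ 1 to 3 and 6.41, 5.57 and 1.55 in OSVZ 1 to 3, so VZ 2 stood apart. Of these markers 3 were tested and all 3 were called lower in OSVZ. The 3 ependymal markers summed to 14.4, 62.1 and 29.2 in VZ and to 0.223, 0.444 and 0.862 in OSVZ, and all 3 were called lower. They reached 1 only in the 3 VZ libraries, so they could not have been called higher. Neuronal markers summed to 712.6, 432.9 and 469.1 in VZ and to 1493, 1452 and 1609 in OSVZ, with 5 of 5 called higher. Interneuron markers summed to 213.9, 268.5 and 166.8 in VZ and to 43.5, 81.9 and 53.3 in OSVZ, with 3 of 4 called lower. Oligodendrocyte precursor markers summed to 20.3, 25 and 27.5 in VZ and to 46.3, 67.5 and 70.2 in OSVZ, with 3 of 4 called higher. The 3 microglial markers overlapped, at 12.5 to 17.9 in VZ and 13.5 to 17.8 in OSVZ, and 0 of 3 were called. Endothelial and mural markers also overlapped, at 31.0 to 36.4 and 34.7 to 39.1, with 1 of 5 called. Meningeal markers stayed at or below 5.42 in every library of both layers, and 1 of 3 was tested and called lower. The part of these cells in the differences described below was not tested.

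**Figure D2:**
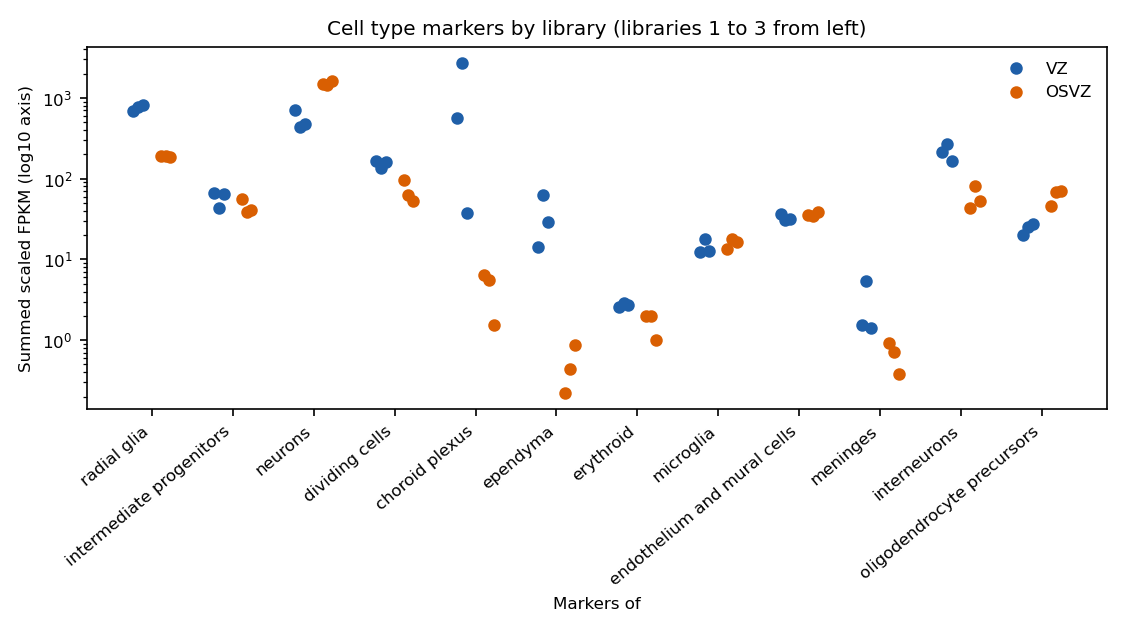
Summed scaled FPKM of the markers of each cell type (y, log10 axis) in the 3 libraries of VZ and the 3 of OSVZ, 1 point per library. Choroid plexus and ependymal sums lie higher in VZ and spread widely among its libraries, radial glia and interneuron sums are higher in VZ, neuronal and oligodendrocyte precursor sums are higher in OSVZ, and microglial and endothelial sums overlap.

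Several of the 15 largest increases are given first. SYT4, a synaptotagmin of neuronal vesicles (TSDBGID.7387, chromosome 13, 33755524 to 33766679), was at 5.0, 2.13 and 31.1 in VZ and 81.4, 76.4 and 92.7 in OSVZ (3.32 ± 0.69, adjusted p = 0.00617). Its smallest OSVZ value was above its largest VZ value, but the size rests on VZ 2, without which the difference was 2.55, and on VZ 3, without which it was 4.40. More even was GLRA2, a subunit of the glycine receptor of immature neurons (TSDBGID.19040, chromosome 3, 9986830 to 10221270), at 1.02, 1.09 and 1.31 in VZ and 10.7, 9.64 and 16 in OSVZ (2.59 ± 0.23, adjusted p = 0.000263). LRFN5, a synaptic adhesion protein (TSDBGID.21333, chromosome 5, 6134851 to 6418425), was at 1.42, 0.446 and 2.19 in VZ and 9.62, 11.3 and 17.4 in OSVZ (2.58 ± 0.26, adjusted p = 0.000357). SLA, an adaptor that lowers receptor tyrosine kinase signalling (TSDBGID.8078, chromosome 14, 9635899 to 9678415), was at 7.97, 1.36 and 6.32 in VZ and 31.6, 36.5 and 29.8 in OSVZ (2.64 ± 0.43, adjusted p = 0.00199). GABBR2, a subunit of the metabotropic GABA receptor (TSDBGID.187, chromosome 2, 119262038 to 119841796), was at 0.69, 0.599 and 1.4 in VZ and 8.17, 8.86 and 12.4 in OSVZ (2.51 ± 0.26, adjusted p = 0.000391).

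Other genes among the 15 largest increases were less certain. SCG2, a secretogranin of dense-core vesicles, was at 0.512, 0.51 and 0.655 in VZ and 5.34, 4.11 and 91.4 in OSVZ (3.21 ± 0.81, adjusted p = 0.0152); the call was lost without VZ 3 (adjusted p = 0.0634), and the difference was 3.85, 3.97 and 1.80 without OSVZ 1, 2 and 3. CAMK2N2, an inhibitor of CaM kinase II, was at 0, 0.891 and 1.16 in VZ and 7.77, 5.73 and 31 in OSVZ (2.95 ± 0.54, adjusted p = 0.00355) and differed by 2.19 without OSVZ 3. The neuronal enolase ENO2 was listed at or near 0 in VZ, at most 0.0255, and at 9.15, 14.6 and 35.5 in OSVZ 1 to 3, with a log2 difference of 4.15 ± 0.32, adjusted p = 0.000224. GPX1, a glutathione peroxidase, was likewise listed near 0 in all 3 VZ libraries and at 5.67, 9.42 and 23.8 in OSVZ (3.58 ± 0.66, adjusted p = 0.00363), and its difference was 4.22 without OSVZ 1 and 3.0 without OSVZ 3. ENO2 overlaps ATN1, at a mean of 24.5 in VZ and 32.2 in OSVZ, and GPX1 overlaps RHOA, at 141.6 and 86.8. The levels of ENO2 and GPX1 are uncertain, because the way reads were divided between overlapping genes is not given in the sources used here.

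Several of the 15 largest decreases are given next. CD9, a tetraspanin (TSDBGID.24086, chromosome 7, 34674239 to 34714728), was at 31.5, 75.1 and 33.5 in VZ and 2.77, 5.91 and 3.6 in OSVZ (-3.16 ± 0.29, adjusted p = 0.000279). S100B, a calcium-binding protein of glia (TSDBGID.343, chromosome 1, 95711612 to 95723482), was at 98, 142 and 158 in VZ and 6.33, 29.3 and 15.2 in OSVZ (-3.10 ± 0.33, adjusted p = 0.000419). LIX1 (TSDBGID.6153, chromosome 11, 77350488 to 77425097) was at 19.6, 29.3 and 14 in VZ and 1.34, 2.92 and 1.33 in OSVZ (-2.93 ± 0.19, adjusted p = 0.000194). MLC1, a glial membrane protein (TSDBGID.23826, chromosome 7, 99646710 to 99669653), was at 25.4, 36.6 and 31.7 in VZ and 2.8, 4.02 and 4.86 in OSVZ (-2.73 ± 0.18, adjusted p = 0.000194). For these 4 genes the highest OSVZ library was below the lowest VZ library, and ISVZ lay between the layers, at means of 5.25, 33.7, 4.65 and 6.61. GDPD2, a glycerophosphodiester phosphodiesterase, was at 16.6, 27.9 and 17.9 in VZ and 1.01, 2.52 and 3.25 in OSVZ (-2.77 ± 0.29, adjusted p = 0.000391).

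Choroid plexus genes varied widely among the VZ libraries. TTR, the transthyretin secreted by the choroid plexus, was at 529, 2514 and 33.8 in VZ and 5.53, 3.85 and 0.136 in OSVZ (-6.77 ± 0.77, adjusted p = 0.000477), and differed by -6.03 without VZ 2, -7.52 without VZ 3 and -5.99 without OSVZ 2. FOLR1, its folate receptor, was at 8.93, 69.7 and 2.05 in VZ and 0.154, 0.152 and 0.0489 in OSVZ (-3.53 ± 0.71, adjusted p = 0.00531), and differed by -2.40 without VZ 2 and -4.45 without VZ 3. OTX2, a transcription factor of the plexus epithelium, was at 4.09, 27 and 6.76 in VZ and 0, 0.0595 and 0.779 in OSVZ (-3.07 ± 0.47, adjusted p = 0.00164; -2.32 without VZ 2). Of 7 tested genes of the choroid plexus list, 6 were called lower and 0 higher. With no filter, 4 of 18 were lower and 0 higher, with a median of -1.19. PENK, the proenkephalin precursor, was at 89.1, 103 and 32.2 in VZ and 0.599, 2.09 and 14.8 in OSVZ (-3.99 ± 0.87, adjusted p = 0.00779), with -4.80 without OSVZ 3, -3.07 without VZ 1 and -5.12 without VZ 3, and its ISVZ mean was 67.9.

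Gene lists for 53 pathways, structures and cell types were read next, each by its counts and its median beside the shares over all genes (13.7% higher, 18.2% lower, median -0.02). In 32 lists more members were lower than higher, and in 17 more were higher than lower. The median kept its sign without each single library in 50 of the 53 lists, the exceptions being the BAF complex, gap junctions and microglia. Without both VZ 1 and VZ 2, the libraries with the most choroid plexus RNA, it kept its sign in 51, while far fewer members were called. Radial glia genes were then lower in 15 of 25 cases (median -1.60) and synaptic vesicle genes higher in 8 of 59 (median 1.06), but kinetochore and spindle genes were lower in 1 of 58 (median -0.92) and DNA replication genes in 2 of 52 (median -0.67).

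**Figure D3:**
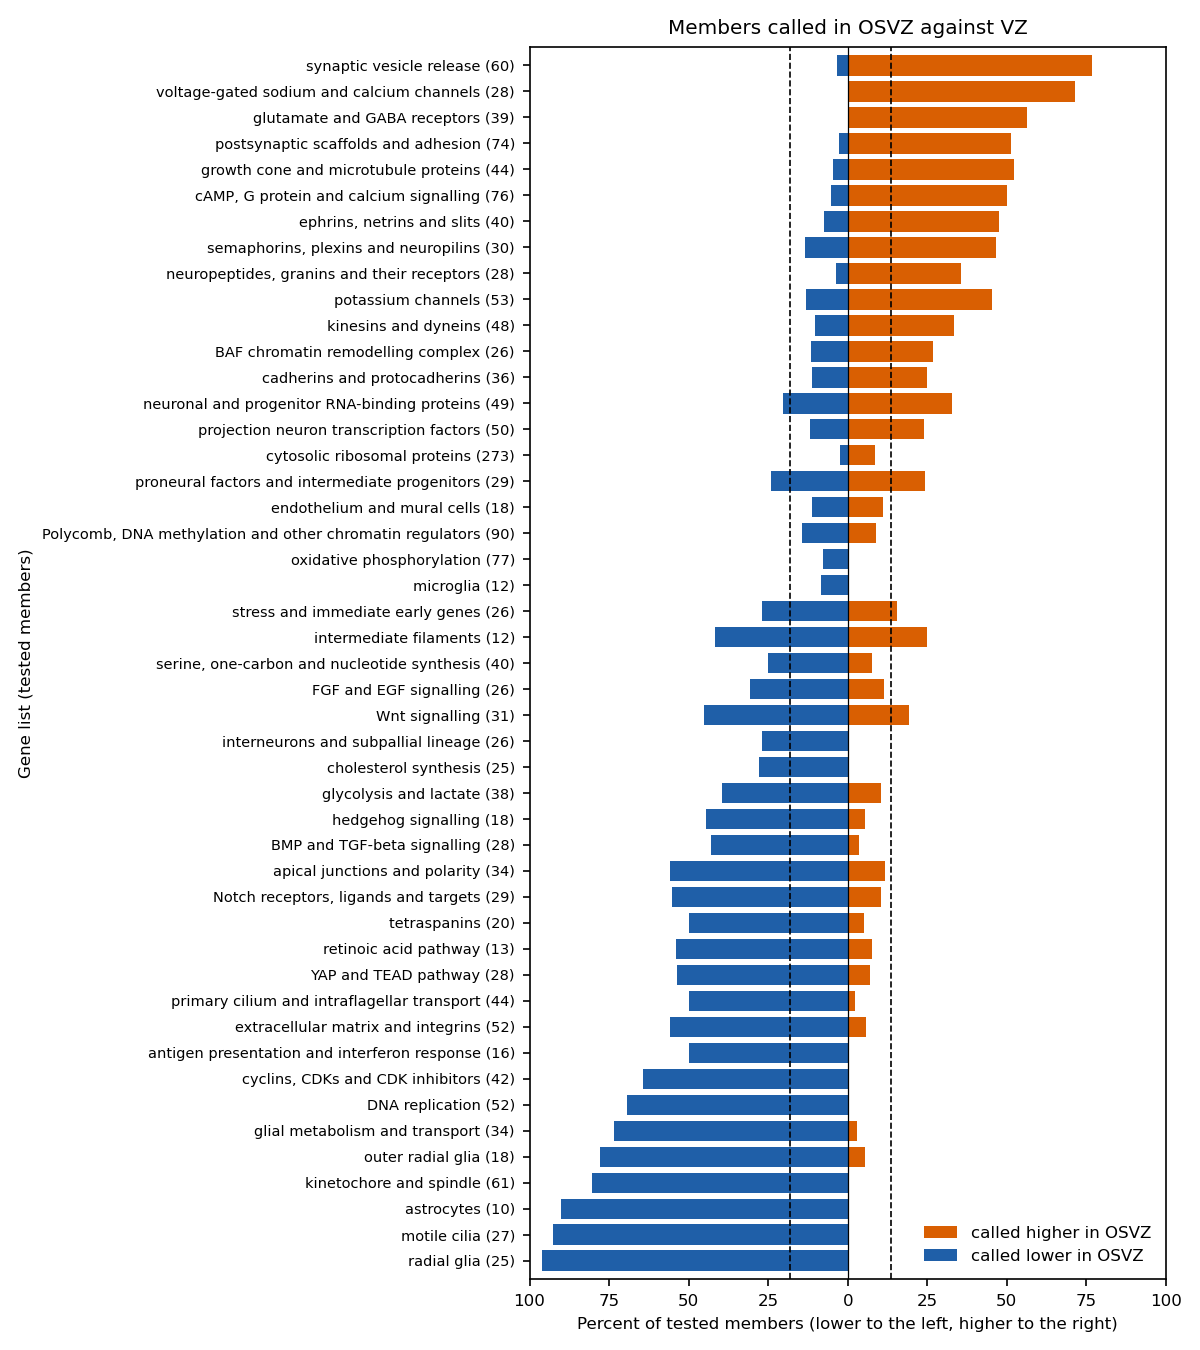
Share of tested members called higher (orange, to the right) and lower (blue, to the left) in OSVZ for the 47 gene lists with at least 10 tested members, ordered by the difference of the shares. Dashed lines mark the shares over all tested genes, 13.7% higher and 18.2% lower. The lists of synaptic vesicle release and of voltage-gated sodium and calcium channels lie at the top, and those of radial glia, motile cilia and astrocytes at the bottom.

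The ventricular surface itself was described by junction, polarity and cilium genes. Of 34 apical junction and polarity genes, 19 were lower and 4 higher, with a median of -0.55. The number higher was 1 without OSVZ 1 and 2 without OSVZ 3 or VZ 3. CRB2, a Crumbs protein that marks the apical membrane, was at 5.36, 7.04 and 7.39 in VZ and 1.24, 1.14 and 1.47 in OSVZ (-1.73 ± 0.21, adjusted p = 0.000641). Its relative CRB1 was at 22.3, 25.3 and 20.1 in VZ and 6.47, 6.16 and 6.02 in OSVZ (-1.70 ± 0.27, adjusted p = 0.00182). CTNNA1, the alpha-catenin that ties cadherins to actin, was at 58, 70.4 and 83.6 in VZ and 22.6, 23.7 and 20.0 in OSVZ (-1.62 ± 0.19, adjusted p = 0.000509). Its neural relative CTNNA2 was at 34.8, 29.9 and 26.7 in VZ and 36.9, 36.1 and 43.2 in OSVZ (0.34 ± 0.15, adjusted p = 0.111). ERM proteins link the membrane to actin. Moesin (MSN) was at 60.6, 63.2 and 61.3 in VZ and 18, 19.9 and 19.1 in OSVZ (-1.65 ± 0.12, adjusted p = 0.000194). Ezrin (EZR) was at 95.7, 98.8 and 95.5 in VZ and 107, 76.4 and 66.3 in OSVZ (-0.24 ± 0.23, adjusted p = 0.456). PRKCZ, an atypical protein kinase C, went the other way, at 4.28, 4.45 and 4.52 in VZ and 8.92, 9.58 and 11.4 in OSVZ (1.01 ± 0.12, adjusted p = 0.0006); its gene also gives rise to a brain-specific short form, and gene-level values do not separate the forms.

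Of 27 tested genes of motile cilia, 25 were lower and 0 higher, with a median of -1.43. The filter raises this share, because members that reach 1 only in the 3 VZ libraries are tested but cannot be called higher. With no filter, 23 of 47 were lower and 0 higher, with a median of -0.90. FOXJ1, their master regulator, was at 11.3, 43.4 and 20.0 in VZ and 0.0618, 0.196 and 0.449 in OSVZ (-4.20 ± 0.30, adjusted p = 0.000194). SPAG6, a protein of the central pair of microtubules, was at 2.38, 15.9 and 5.79 in VZ and 0, 0 and 0.00787 in OSVZ (-2.86 ± 0.39, adjusted p = 0.000922). RSPH1, of the radial spokes, was at 1.84, 15.5 and 6.92 in VZ and 0, 0.0459 and 0.228 in OSVZ (-2.73 ± 0.42, adjusted p = 0.00159). All 3 were highest in VZ 2, and all 3 lay below the filter of 1 in 3 libraries when any VZ library was left out. The list then held 17 tested genes, of which 13, 9 and 14 were lower without VZ 1, 2 and 3, and 4 of 15 without both VZ 1 and VZ 2. Genes of the primary cilium and of transport along it were lower in 22 of 44 cases with 1 higher, and in 14 of 44 without VZ 2, with a median of -0.36. The 1 higher call was lost without OSVZ 3, VZ 1, VZ 2 or VZ 3. BBS2, a subunit of the BBSome, was at 12.4, 15.9 and 14.8 in VZ and 6.13, 6.77 and 5.68 in OSVZ (-1.09 ± 0.10, adjusted p = 0.000294). DYNC2H1, the motor of retrograde transport, was at 3.39, 7.73 and 4.89 in VZ and 1.98, 2.1 and 2.08 in OSVZ (-1.0 ± 0.20, adjusted p = 0.00511). KIF3A, a subunit of the anterograde motor that neurons also use, was at 24.5, 19 and 19 in VZ and 28, 27.8 and 28.5 in OSVZ (0.42 ± 0.15, adjusted p = 0.0621).

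Tetraspanins, scaffolds of membrane domains, were lower in 10 of 20 cases, with CD9 as above and TSPAN6 at 73.8, 85.2 and 79.7 in VZ and 22.9, 29.2 and 20.0 in OSVZ (-1.70 ± 0.17, adjusted p = 0.000367). TSPAN13 was the 1 member higher, at 54.3, 47.8 and 50.9 in VZ and 91.3, 113 and 109 in OSVZ (1.01 ± 0.13, adjusted p = 0.000728).

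Radial glia genes were lower in 24 of 25 cases with 0 higher, and the median was -1.39. SLC1A3, the glutamate transporter GLAST, was at 255, 275 and 273 in VZ and 57.4, 71.6 and 61.3 in OSVZ (-2.07 ± 0.27, adjusted p = 0.000773). ID3 was the member not called (-0.74 ± 0.26, adjusted p = 0.055). Genes known as markers of outer radial glia in primates, the progenitors that the OSVZ is known for, were lower as well, in 14 of 18 cases with a median of -1.33. SLCO1C1, a thyroid hormone transporter, was at 55.2, 54 and 71.9 in VZ and 8.51, 16 and 5.82 in OSVZ (-2.56 ± 0.30, adjusted p = 0.000518). MOXD1, a monooxygenase, was at 49.7, 49 and 44 in VZ and 6.38, 14.2 and 7.7 in OSVZ (-2.29 ± 0.26, adjusted p = 0.000477). PTN, the growth factor pleiotrophin, was at 406, 509.6 and 469 in VZ and 70.1, 149 and 81.7 in OSVZ (-2.26 ± 0.23, adjusted p = 0.000371). HOPX, a homeodomain protein, was at 3.23, 3.83 and 3.53 in VZ and 0.916, 0.343 and 1.13 in OSVZ (-1.36 ± 0.29, adjusted p = 0.00711). The proteoglycan SDC3 was the 1 member called higher, a call lost without OSVZ 3 (adjusted p = 0.102) and without VZ 1, 2 or 3 (0.0958, 0.0665 and 0.103). IL6ST and ARHGAP11A were not called (-0.30 ± 0.12 and -0.10 ± 0.19, adjusted p = 0.0837 and 0.722). Outer radial glia share many of these genes with apical radial glia, so the list does not separate them.

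Transporters and enzymes of glia were lower in 25 of 34 cases (median -1.40). The 1 member higher lost its call without OSVZ 1, OSVZ 3 or any VZ library, and without the replicate block. CLU, the secreted chaperone clusterin, was at 123, 264 and 178 in VZ and 19.3, 31.8 and 47.4 in OSVZ (-2.50 ± 0.20, adjusted p = 0.000235). AQP4, the water channel of astrocyte endfeet, was at 12.5, 27.7 and 19.8 in VZ and 0.791, 2.5 and 14.7 in OSVZ (-2.12 ± 0.50, adjusted p = 0.0107), and differed by -2.97 without OSVZ 3. APOE, the lipid carrier, varied widely within both layers and was not called, at 186, 428 and 168 in VZ and 35.5, 92.2 and 162 in OSVZ (-1.54 ± 0.53, adjusted p = 0.0531), but was called without OSVZ 3 (-2.37, adjusted p = 0.00189). Of 10 astrocyte genes 9 were lower and 0 higher.

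Neuronal and glial intermediate filaments went in opposite directions, with 3 of 12 genes higher and 5 lower. NEFM, the medium neurofilament of axons, was at 0.762, 0.535 and 1.22 in VZ and 8.93, 3.49 and 8.45 in OSVZ (2.05 ± 0.17, adjusted p = 0.000255). An annotated copy of NEFL, NEFLli1, was at 0.372, 1.26 and 0.383 in VZ and 7.78, 3.34 and 28.8 in OSVZ (2.68 ± 0.51, adjusted p = 0.00437; 3.36 without OSVZ 2 and 1.90 without OSVZ 3). The glial filament GFAP was at 4.4, 10.8 and 19 in VZ and 1.53, 2.53 and 3.19 in OSVZ (-1.70 ± 0.29, adjusted p = 0.00258). Nestin (NES) was at 41.5, 38.6 and 50.9 in VZ and 24.3, 23.8 and 22.7 in OSVZ (-0.85 ± 0.14, adjusted p = 0.00218). The nuclear lamin LMNB2 was not called (-0.16 ± 0.12, adjusted p = 0.36).

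SOX transcription factors of progenitors were lower as well. Members of the family are named here after their values were seen. Of 14 tested, 8 were lower and 3 higher. The higher members included SOX10 (0.89 ± 0.24, adjusted p = 0.0209), whose call was lost without OSVZ 3 or VZ 1. Besides SOX2, the lower members included its closest relatives SOX1 (-1.18 ± 0.20, adjusted p = 0.00267) and SOX3 (-1.36 ± 0.21, adjusted p = 0.00166), the gliogenic SOX9 (-1.51 ± 0.17, adjusted p = 0.000425) and SOX6 (-1.44 ± 0.19, adjusted p = 0.000876). SOX4, of newborn neurons, was at 108, 79.9 and 57.9 in VZ and 117, 117 and 79.8 in OSVZ (0.37 ± 0.19, adjusted p = 0.174).

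Notch signalling maintains radial glia through contact with neighbours that present Delta or Jagged ligands. Of 29 genes of the pathway, 16 were lower and 3 higher (median -0.74). Among receptors, NOTCH2 was at 9.57, 10.4 and 13.9 in VZ and 2.58, 2.58 and 2.23 in OSVZ (-1.81 ± 0.19, adjusted p = 0.000412). LFNG, the glycosyltransferase that tunes Notch receptors, was at 28.3, 41.4 and 44.9 in VZ and 6.66, 8.79 and 12.6 in OSVZ (-1.93 ± 0.25, adjusted p = 0.000718). Among targets, HES4 was at 10.4, 11.6 and 11.5 in VZ and 1.26, 1.65 and 2.08 in OSVZ (-2.20 ± 0.18, adjusted p = 0.000255). ID4, an inhibitor of bHLH factors, was at 106, 126 and 122 in VZ and 24.2, 29.2 and 33.8 in OSVZ (-1.99 ± 0.18, adjusted p = 0.000281). The 3 members higher were the ligand JAG2, at 2.62, 2.04 and 3.15 in VZ and 5.87, 5.01 and 7.48 in OSVZ (0.98 ± 0.15, adjusted p = 0.00172), the ubiquitin ligase DTX1 (0.69 ± 0.15, adjusted p = 0.00652) and ID2, at 20.8, 10.9 and 13.8 in VZ and 47.1, 49.5 and 30.0 in OSVZ (1.43 ± 0.29, adjusted p = 0.00567). RBPJ, the DNA-binding partner of the receptors, was not called, at 17.7, 18.4 and 17.6 in VZ and 15.8, 15.2 and 14.4 in OSVZ (-0.23 ± 0.09, adjusted p = 0.0835).

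YAP and its partners read tension and contact at junctions. Of 28 genes of that pathway, 15 were lower and 2 higher (median -0.59), with 1 higher without OSVZ 1, OSVZ 2 or VZ 1. YAP1 itself was at 10.6, 15.6 and 16.9 in VZ and 4.38, 3.14 and 3.33 in OSVZ (-1.72 ± 0.22, adjusted p = 0.000761). The junctional scaffold AJUBA was at 6.52, 10.3 and 8.99 in VZ and 1.38, 1.19 and 1.66 in OSVZ (-1.98 ± 0.20, adjusted p = 0.000352). NF2, the upstream brake merlin, was higher, at 12.7, 13 and 12.9 in VZ and 19.9, 17.5 and 20.3 in OSVZ (0.54 ± 0.12, adjusted p = 0.00706), and the DNA-binding partner TEAD2 was not called (-0.59 ± 0.21, adjusted p = 0.0547).

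Receptors of growth factors and morphogens were lower more often than higher. In the Wnt pathway 14 of 31 genes were lower and 6 higher (median -0.53). The number higher was 3, 2, 1, 2 and 2 without OSVZ 1, OSVZ 2, OSVZ 3, VZ 1 and VZ 2, and 2 without the replicate block. The receptor FZD8 was at 11.6, 10.2 and 14.6 in VZ and 3.34, 3.3 and 2.67 in OSVZ (-1.67 ± 0.19, adjusted p = 0.000473). FZD2 was at 20.3, 20.6 and 22.4 in VZ and 6.48, 6.57 and 6.28 in OSVZ (-1.57 ± 0.13, adjusted p = 0.000255). The ligand WNT5B was at 4.41, 8.29 and 3.62 in VZ and 0.336, 0.36 and 0.461 in OSVZ (-2.15 ± 0.25, adjusted p = 0.000557). APC, a brake of the pathway that also binds microtubules, was higher at 27.3, 23.7 and 27.6 in VZ and 46.2, 38 and 45.5 in OSVZ (0.70 ± 0.10, adjusted p = 0.00119). FZD1 was at 15.4, 12 and 13 in VZ and 36.5, 38.1 and 20.3 in OSVZ (1.13 ± 0.31, adjusted p = 0.0201), a call lost without OSVZ 2, OSVZ 3, VZ 1 or VZ 2 (adjusted p = 0.0758, 0.056, 0.0832 and 0.0919) and without the replicate block (0.0782).

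Among FGF receptors, FGFR2 was lower at 28.4, 32.2 and 32.3 in VZ and 7.35, 7.47 and 5.63 in OSVZ (-2.04 ± 0.15, adjusted p = 0.000194). FGFR3 was lower at 27.6, 34 and 16.9 in VZ and 5.83, 5.79 and 3.91 in OSVZ (-2.10 ± 0.22, adjusted p = 0.000416). Of 26 genes of FGF and EGF signalling, 8 were lower, 5 of 25 without VZ 2, and 3 higher (median -0.29). NRG3, a ligand of the receptor ERBB4, was higher at 0.677, 0.494 and 1.41 in VZ and 2.81, 3.17 and 5.46 in OSVZ (1.36 ± 0.19, adjusted p = 0.00107), and ERBB4 was not called (-0.62 ± 0.28, adjusted p = 0.122). In hedgehog signalling 8 of 18 genes were lower, with 5 lower without OSVZ 3, VZ 2, VZ 3 or the replicate block, and 1 higher (median -0.48). They included the co-receptor BOC (-1.36 ± 0.26, adjusted p = 0.00454), the signal transducer SMO (-0.89 ± 0.19, adjusted p = 0.0065) and the transcription factor GLI3, at 11.4, 9.73 and 15.5 in VZ and 4.83, 3.97 and 3.53 in OSVZ (-1.36 ± 0.23, adjusted p = 0.0024).

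In BMP and TGF-beta signalling 12 of 28 genes were lower and 1 higher (median -0.43), and 7, 5 and 7 were lower without OSVZ 3, VZ 2 and VZ 3. The number higher was 0 without VZ 2 and 2 without VZ 3. LTBP3, which stores TGF-beta in the matrix, was at 14, 27.6 and 23.5 in VZ and 4.34, 5.26 and 5.2 in OSVZ (-1.89 ± 0.24, adjusted p = 0.000672). The BMP antagonist NOG was at 9.04, 12.6 and 11.4 in VZ and 1.7, 2.9 and 4.13 in OSVZ (-1.66 ± 0.23, adjusted p = 0.000922). Of 13 retinoic acid genes 7 were lower and 1 higher, with 3 lower without OSVZ 2 and 4 without VZ 2, and the higher call was lost without any 1 of the 6 libraries.

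Genes of the cell cycle were lower, and 0 members of the 3 lists were called higher. Of 52 DNA replication genes 36 were lower (median -0.60), with 22, 17, 19 and 18 lower without OSVZ 2, OSVZ 3, VZ 2 and VZ 3. MCM6, of the replicative helicase, was at 39.7, 41.1 and 42.9 in VZ and 25.5, 17.9 and 15.7 in OSVZ (-1.06 ± 0.21, adjusted p = 0.00534). Of 61 kinetochore and spindle genes 49 were lower (median -0.90), such as SKA1, at 9.52, 8.29 and 9.09 in VZ and 3.77, 4.1 and 2.53 in OSVZ (-1.17 ± 0.17, adjusted p = 0.00137). An annotated copy of PRC1, the bundler of the central spindle, PRC1li1, was at 38.8, 39.3 and 47.5 in VZ and 21.8, 16.4 and 14.3 in OSVZ (-1.22 ± 0.18, adjusted p = 0.00147). Of 42 cyclins, CDKs and inhibitors 27 were lower, 17 without VZ 2 (median -0.71). CKS2, a CDK subunit, was at 178, 170.4 and 188 in VZ and 83.2, 66.8 and 55.8 in OSVZ (-1.39 ± 0.25, adjusted p = 0.00332). BTG2, an antiproliferative factor of neurogenic divisions, was at 21.8, 23.3 and 21.6 in VZ and 9.63, 9.15 and 8.02 in OSVZ (-1.23 ± 0.17, adjusted p = 0.000984). MKI67, the proliferation marker, was at 46.4, 30.0 and 34.5 in VZ and 28, 15.2 and 14.3 in OSVZ (-0.95 ± 0.22, adjusted p = 0.0103). The checkpoint protein BUB3 (-0.12 ± 0.10, adjusted p = 0.418) and the CDK inhibitor CDKN1B (-0.19 ± 0.12, adjusted p = 0.247) were not called. These genes remained expressed in OSVZ, where the summed level of the 3 division markers was 95.2, 63.4 and 53.1 against 163.6, 137.1 and 160.1 in VZ and at most 2.77 in CP.

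**Figure D4:**
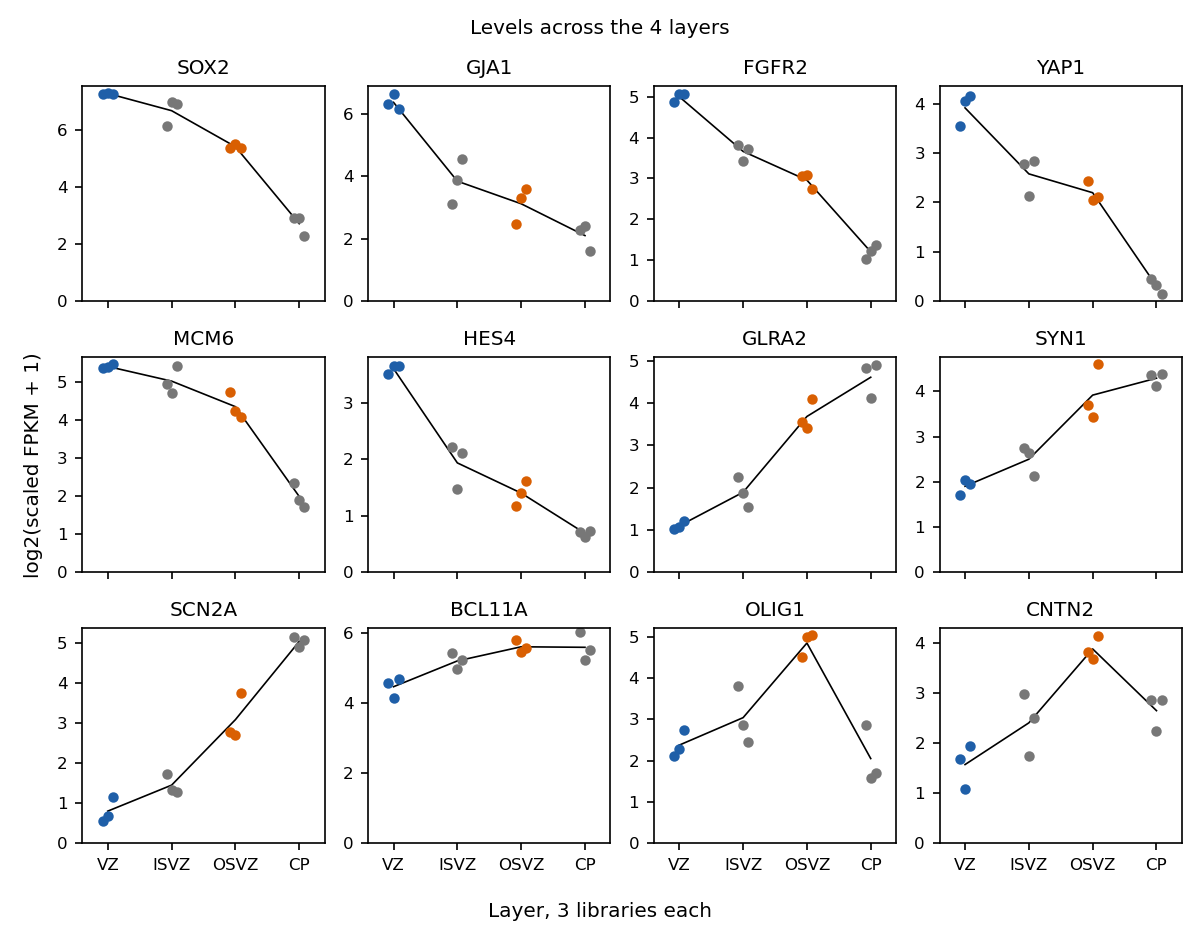
Level of 12 genes in each library of the 4 layers (y, log2 of scaled FPKM plus 1), 1 point per library with a line through the layer means. SOX2, GJA1, FGFR2, YAP1, MCM6 and HES4 are highest in VZ, GLRA2, SYN1, SCN2A and BCL11A are higher in OSVZ than in VZ, and OLIG1 and CNTN2 are highest in OSVZ.

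Factors that drive neurogenesis went in both directions. Of 29 proneural and intermediate progenitor genes 7 were higher and 7 lower (median -0.13), with 4 lower without OSVZ 3 or VZ 1. TBR1, a T-box factor of early projection neurons whose annotated gene overlaps 4 others, was at 11.1, 3.43 and 7.18 in VZ and 27.9, 29.2 and 24.8 in OSVZ (1.90 ± 0.29, adjusted p = 0.00151). DLL3, a Delta-like protein of committed progenitors, was at 7.49, 14.1 and 8.97 in VZ and 2.15, 4.5 and 3.04 in OSVZ (-1.40 ± 0.28, adjusted p = 0.00525). INSM1, which drives delamination and basal progenitor formation, was high and overlapped, at 138, 103 and 112 in VZ and 146, 116 and 97.1 in OSVZ (0.02 ± 0.15, adjusted p = 0.945), as did RND3, a small GTPase of migrating cells, at 132, 95.7 and 72.7 in VZ and 90.5, 85.4 and 58.3 in OSVZ (-0.34 ± 0.34, adjusted p = 0.482).

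Among 50 transcription factors of projection neurons, 12 were higher and 6 lower (median 0.20), with 3, 1, 2 and 3 lower without OSVZ 1, VZ 1, VZ 2 and VZ 3. BCL11A, named after its value was seen, was at 22.9, 16.8 and 24.7 in VZ and 54.6, 43.1 and 46.9 in OSVZ (1.14 ± 0.12, adjusted p = 0.000419). POU3F4 was lower, at 33.8, 31 and 35 in VZ and 12.9, 17.5 and 13.2 in OSVZ (-1.15 ± 0.16, adjusted p = 0.000959). MEIS2 was at 85, 49.3 and 65.8 in VZ and 75, 87.5 and 76.2 in OSVZ (0.28 ± 0.36, adjusted p = 0.588). Of the 50 genes, 32 were not called.

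Genes of interneurons, which arise in the subpallium, were lower in 7 of 26 cases with 0 higher (median -0.79), and in 4 without VZ 1. The share of this list called, 26.9%, was below the 31.9% of all genes, and above the 18.2% called lower. With no filter, 2 of 28 were lower and 0 higher. DLX2, a homeobox factor of that lineage, was at 59.7, 76.5 and 50.0 in VZ and 12.6, 23.1 and 15.3 in OSVZ (-1.83 ± 0.40, adjusted p = 0.00758). SP9, a zinc finger factor of the same lineage, was at 43.3, 50.6 and 32.8 in VZ and 5.36, 12 and 10.3 in OSVZ (-2.13 ± 0.43, adjusted p = 0.00567). GSX2, of subpallial progenitors, was at 9.66, 14.9 and 15.1 in VZ and 2.32, 3.87 and 3.04 in OSVZ (-1.80 ± 0.26, adjusted p = 0.00127). ISVZ means were 59.9, 49.6 and 8.15. SST, the somatostatin peptide of 1 interneuron class, was not called and spread widely, at 13.1, 13.2 and 18.6 in VZ and 18.6, 48.6 and 152 in OSVZ (1.75 ± 0.60, adjusted p = 0.0531), and differed by 0.97 without OSVZ 3 (adjusted p = 0.201). Oligodendrocyte precursor genes were higher in 3 of 8 cases with 1 lower, and higher in 2 without OSVZ 3 or VZ 1 and in 4 without VZ 3. OLIG1 was at 3.35, 3.83 and 5.67 in VZ and 21.9, 30.7 and 31.7 in OSVZ (2.47 ± 0.38, adjusted p = 0.00167). PDGFRA, the receptor that drives their division, was at 1.02, 1.34 and 1.52 in VZ and 5.91, 7.31 and 9.09 in OSVZ (1.87 ± 0.31, adjusted p = 0.00221). OLIG2, which progenitors also use, overlapped at 15.4, 18.6 and 18.8 in VZ and 16.2, 26.8 and 25.8 in OSVZ (0.34 ± 0.30, adjusted p = 0.421), and S100B was the member lower.

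Of 30 semaphorins, plexins and neuropilins 14 were higher, 9 without VZ 1, and 4 lower (median 0.43). SEMA3C, a secreted semaphorin, was at 6.2, 4.34 and 4.82 in VZ and 40.8, 42.2 and 26.3 in OSVZ (2.59 ± 0.51, adjusted p = 0.00496). Its receptor NRP1 was at 4.09, 3.0 and 3.15 in VZ and 17.2, 18.5 and 14.8 in OSVZ (2.02 ± 0.24, adjusted p = 0.000571). The co-receptor PLXNA4 was at 4.79, 2.66 and 4.84 in VZ and 29.9, 22.8 and 17.4 in OSVZ (2.26 ± 0.24, adjusted p = 0.000419). SEMA3B, another secreted semaphorin, was lower at 3.04, 7.36 and 7.58 in VZ and 0.192, 0.587 and 0.841 in OSVZ (-2.13 ± 0.25, adjusted p = 0.000509). PLXNB1, a plexin of a different class, was lower at 6.8, 9.55 and 7.83 in VZ and 1.5, 1.69 and 1.98 in OSVZ (-1.73 ± 0.21, adjusted p = 0.000616). SEMA5B, a transmembrane semaphorin, was lower at 10.7, 12.7 and 17.1 in VZ and 3.31, 3.8 and 3.55 in OSVZ (-1.65 ± 0.20, adjusted p = 0.000615). Among ephrins, netrins, slits and their receptors 19 of 40 were higher and 3 lower (median 0.52), with 11 and 12 higher without OSVZ 3 and VZ 2, and 1 lower without VZ 3. UNC5A, a netrin receptor, was at 5.16, 1.75 and 4.44 in VZ and 30.7, 25.3 and 17.9 in OSVZ (2.47 ± 0.37, adjusted p = 0.00147). UNC5D, a marker of multipolar migrating neurons, was at 13.9, 3.67 and 5.68 in VZ and 25.8, 35.3 and 22.1 in OSVZ (1.86 ± 0.40, adjusted p = 0.00711). DRAXIN, a repellent of forebrain commissures, was at 9.24, 8.52 and 12.5 in VZ and 34.2, 28.2 and 20.4 in OSVZ (1.35 ± 0.20, adjusted p = 0.00147). EFNB1, an ephrin of radial glia, was lower at 21.7, 19.6 and 24 in VZ and 11.4, 12 and 10.4 in OSVZ (-0.89 ± 0.14, adjusted p = 0.00212).

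Growth cone and microtubule genes were higher in 23 of 44 cases, 14 without VZ 2 and 15 without VZ 3, and lower in 2 (median 0.46). MAPT, the axonal protein tau, was at 27.2, 24.1 and 32.3 in VZ and 106, 86.1 and 164 in OSVZ (2.01 ± 0.24, adjusted p = 0.000546). BASP1, a membrane protein of growth cones, was at 319.5, 234 and 271 in VZ and 678, 633 and 712 in OSVZ (1.30 ± 0.12, adjusted p = 0.000294). GPM6B, a membrane protein of glia and neurons, was lower at 179, 190.0 and 178 in VZ and 83.6, 115 and 87.4 in OSVZ (-0.94 ± 0.15, adjusted p = 0.00191). STMN1, a microtubule destabiliser of progenitors and neurons alike, was at 1806, 1277 and 1048 in VZ and 2193, 1997 and 1506 in OSVZ (0.48 ± 0.18, adjusted p = 0.0727).

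Among motors 16 of 48 were higher and 5 lower (median 0.21), with 3 lower without VZ 2. DYNC1I1, the neuronal intermediate chain of dynein, was at 3.02, 2.4 and 5.17 in VZ and 19.7, 14.1 and 17.8 in OSVZ (2.04 ± 0.15, adjusted p = 0.000194). Of the conventional kinesins, the neuronal form KIF5A was higher at 6.71, 5.15 and 7.24 in VZ and 20.2, 17.3 and 37.9 in OSVZ (1.76 ± 0.25, adjusted p = 0.00111). The neuronal form KIF5C was higher at 23, 18.8 and 19.9 in VZ and 45.4, 46.7 and 61.1 in OSVZ (1.26 ± 0.17, adjusted p = 0.000921). An annotated copy of NDE1, a dynein regulator of progenitor divisions, NDE1li1, was lower at 7.22, 8.85 and 12.1 in VZ and 4.92, 3.99 and 4.04 in OSVZ (-0.95 ± 0.19, adjusted p = 0.00532).

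Genes of vesicle release had the largest share of members called higher among the lists of at least 10 tested members. Of these 60 genes 46 were higher and 2 lower, and the median was 1.14. With no filter, 38 of 67 were higher and 2 lower, with a median of 1.02. SYN1, a synapsin that tethers vesicles, was at 2.28, 3.1 and 2.88 in VZ and 12, 9.81 and 23.4 in OSVZ (2.01 ± 0.28, adjusted p = 0.000941). SLC17A7, a vesicular glutamate transporter, was at 1.47, 0.457 and 2.44 in VZ and 17.5, 11.3 and 6.03 in OSVZ (2.34 ± 0.43, adjusted p = 0.00359; 2.94 without VZ 3). Of the 2 members lower, SYPL1, a synaptophysin relative found outside neurons, was at 26, 26.9 and 27.2 in VZ and 11.8, 11.3 and 10.9 in OSVZ (-1.17 ± 0.17, adjusted p = 0.0013). The other, an annotated copy of SYT11 named SYT11li1, was at 149, 160.5 and 164 in VZ and 59.5, 72.2 and 66.3 in OSVZ (-1.25 ± 0.09, adjusted p = 0.000194). Of 74 postsynaptic scaffolds and adhesion proteins 38 were higher and 2 lower (median 0.62). CNTN2, an adhesion protein of migrating neurons and corticofugal axons, was at 2.23, 1.13 and 2.82 in VZ and 13.1, 11.8 and 16.6 in OSVZ (2.31 ± 0.18, adjusted p = 0.000224). L1CAM, of growing axons, was at 7.89, 5.08 and 8.59 in VZ and 28.2, 22.8 and 34.8 in OSVZ (1.86 ± 0.16, adjusted p = 0.000258). LRRC4B, a synaptic adhesion protein, was lower at 17.3, 16.7 and 18.4 in VZ and 11.4, 9.0 and 12.9 in OSVZ (-0.62 ± 0.10, adjusted p = 0.00161), as was the adhesion receptor ADGRB2 (-0.61 ± 0.13, adjusted p = 0.00688).

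Ion channels followed. Of 28 voltage-gated sodium and calcium channel genes 20 were higher and 0 lower (median 0.87), and with no filter 14 of 39 were higher (median 0.60). SCN2A, the sodium channel of young axons, was at 0.478, 0.616 and 1.24 in VZ and 5.9, 5.57 and 12.5 in OSVZ (2.28 ± 0.24, adjusted p = 0.000391). SCN3A was at 5.66, 3.77 and 3.79 in VZ and 14.4, 15.4 and 17.4 in OSVZ (1.64 ± 0.18, adjusted p = 0.000419). The accessory subunit SCN3B was at 9.48, 8.85 and 9.51 in VZ and 30.1, 22.9 and 48.5 in OSVZ (1.69 ± 0.22, adjusted p = 0.000824). CACNG7 was not called (0.23 ± 0.11, adjusted p = 0.136). Of 53 potassium channel genes 24 were higher and 7 lower (median 0.60), with 2 lower without OSVZ 2 or VZ 2, 4 without OSVZ 1, VZ 1 or VZ 3, and 3 without the replicate block. KCND2, which carries the A-type current of neurons, was at 0.491, 0.268 and 0.612 in VZ and 4.6, 5.86 and 7.16 in OSVZ (2.23 ± 0.23, adjusted p = 0.000406). KCNMA1, the large calcium-activated channel, was at 1.56, 0.824 and 1.72 in VZ and 8.53, 7.66 and 9.0 in OSVZ (2.01 ± 0.20, adjusted p = 0.000353). KCNJ10, the inward rectifier of glia, was lower at 14.9, 17.6 and 20.6 in VZ and 2.63, 4.88 and 4.17 in OSVZ (-1.95 ± 0.22, adjusted p = 0.000477).

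Of 39 transmitter receptor genes 22 were higher and 0 lower (median 0.94). The filter raises this median, and with no filter 20 of 55 were higher and 0 lower, with a median of 0.40. GABRA5, a subunit of the ionotropic GABA receptor, was at 0.232, 0.052 and 0.588 in VZ and 7.21, 3.47 and 7.42 in OSVZ (2.41 ± 0.18, adjusted p = 0.000194). The AMPA receptor subunit GRIA1 was abundant in both layers, at 76.4, 69.2 and 80.7 in VZ and 87.5, 86.2 and 69.8 in OSVZ (0.10 ± 0.17, adjusted p = 0.696). Neuropeptide, granin and processing genes were higher in 10 of 28 cases and lower in 1, PENK (median 0.74), with 2 lower without OSVZ 3. The convertase PCSK2 was at 0.466, 0.473 and 0.575 in VZ and 3.39, 2.22 and 7.43 in OSVZ (1.71 ± 0.29, adjusted p = 0.00259). NXPH3, a neurexin ligand, was at 0.907, 1.12 and 1.44 in VZ and 10.1, 8.52 and 3.95 in OSVZ (1.91 ± 0.35, adjusted p = 0.00337).

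Second messenger genes were higher in 38 of 76 cases and lower in 4 (median 0.58), 2 without OSVZ 1. ADCY1, a calcium-activated adenylyl cyclase, was at 2.23, 2.08 and 4.74 in VZ and 19.1, 11.1 and 15.9 in OSVZ (2.06 ± 0.26, adjusted p = 0.000704). CAMK2B was at 3.94, 3.05 and 8.64 in VZ and 23.8, 16.1 and 30.4 in OSVZ (2.04 ± 0.27, adjusted p = 0.000824). HPCA, the calcium sensor hippocalcin, was at 24.5, 9.41 and 10.4 in VZ and 55.6, 80.5 and 70.0 in OSVZ (2.25 ± 0.37, adjusted p = 0.00223). HPCA was higher in OSVZ than in CP by its mean (68.7 against 21.1).

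Of 36 cadherins and protocadherins 9 were higher and 4 lower (median 0.39), with 5 and 4 higher without OSVZ 3 and VZ 1. PCDH11X was at 1.75, 0.976 and 1.94 in VZ and 10.3, 4.43 and 12.2 in OSVZ (1.89 ± 0.19, adjusted p = 0.000367). CDH2, the N-cadherin of the ventricular junctions and of neurons, was lower at 49, 58.4 and 50.1 in VZ and 29.3, 38.1 and 34.1 in OSVZ (-0.62 ± 0.15, adjusted p = 0.0105). CELSR1, a planar polarity cadherin, was at 8.06, 6.83 and 9.8 in VZ and 4.91, 2.85 and 2.69 in OSVZ (-1.06 ± 0.21, adjusted p = 0.00533). Of 52 matrix and integrin genes 29 were lower, 19 of 46 without VZ 2, and 3 higher (median -0.71). The filter raises the share lower, as for motile cilia, because members such as COL4A6 reach 1 only in the VZ libraries. With no filter, 26 of 72 were lower and 2 higher, with a median of -0.54. The integrin subunit ITGB5 was at 7.0, 12.4 and 10.2 in VZ and 0.941, 2.04 and 2.34 in OSVZ (-1.98 ± 0.21, adjusted p = 0.000419). COL4A5 and COL4A6, chains of basement membrane collagen, were highest in VZ 2 at 10.9 and 10.3 and at most 1.0 and 0.708 in OSVZ (-1.98 ± 0.31, adjusted p = 0.00171 and -2.11 ± 0.29, adjusted p = 0.00103), and both lay below the filter without VZ 2 or VZ 3, COL4A6 also without VZ 1. LAMB2, a laminin chain, was at 3.77, 9.42 and 6.73 in VZ 1 to 3 and listed at or near 0 in OSVZ 1 and 2 (-2.75 ± 0.39, adjusted p = 0.00111). It overlaps USP19, at means of 9.67 in VZ and 12 in OSVZ, so its level is uncertain. GPC2, a neuronal glypican, was higher at 30.3, 21.6 and 19.9 in VZ and 45.7, 45.8 and 37.4 in OSVZ (0.84 ± 0.13, adjusted p = 0.00144), while VCAN, versican, was not called (0.85 ± 0.31, adjusted p = 0.0629).

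The RNA of the enzymes of the 3 steps of serine synthesis, which feeds one-carbon metabolism, was lower. Synthesis itself was not measured. PHGDH was at 41.4, 50.3 and 51.4 in VZ and 20.6, 19 and 21.8 in OSVZ (-1.18 ± 0.21, adjusted p = 0.00307). PSAT1 was at 158, 169 and 222 in VZ and 44.8, 47.5 and 43.5 in OSVZ (-1.97 ± 0.22, adjusted p = 0.000428). PSPH was at 3.45, 4.66 and 3.26 in VZ and 1.21, 1.58 and 1.49 in OSVZ (-0.97 ± 0.14, adjusted p = 0.00107). The whole list of serine, one-carbon and nucleotide synthesis held 10 lower and 3 higher of 40 (median -0.16). Its share called, 32.5%, was near the 31.9% of all genes. In glycolysis 15 of 38 genes were lower and 4 higher (median -0.21), with 2 higher without OSVZ 3. With exact symbols only, 9 of 25 were lower and 4 higher. ALDOC, the glial aldolase, was at 36.3, 70.8 and 40.4 in VZ and 9.46, 15 and 25.5 in OSVZ (-1.55 ± 0.27, adjusted p = 0.00283). HK2, an inducible hexokinase, was at 3.27, 3.68 and 5.79 in VZ and 1.47, 1.02 and 1.25 in OSVZ (-1.20 ± 0.20, adjusted p = 0.00223). PDK4, a kinase that inhibits pyruvate dehydrogenase, was at 10.3, 19.9 and 9.53 in VZ and 0.943, 2.62 and 2.38 in OSVZ (-2.24 ± 0.26, adjusted p = 0.000509), and GPI was not called (0.14 ± 0.12, adjusted p = 0.393). Cholesterol synthesis had 7 of 25 lower and 0 higher (median -0.27), with 4, 4, 4 and 3 lower without OSVZ 1, OSVZ 2, VZ 2 and VZ 3. Its share called was 28.0%, against 31.9% of all genes in either direction and 18.2% lower.

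Of 77 nuclear genes of oxidative phosphorylation 6 were lower and 0 higher (7.8% called, against 31.9% of all genes, median -0.12), and 2 to 4 were lower when 1 library was left out and 3 without the replicate block. With exact symbols only, which leaves annotated copies out of the lists, 2 of 50 were lower. The subunit SDHC of complex II was the largest of those not named as copies, at 85.7, 109 and 82.5 in VZ and 61.3, 64.8 and 61.6 in OSVZ (-0.55 ± 0.12, adjusted p = 0.00865). Of 273 cytosolic ribosomal protein genes, 248 of them annotated copies, 23 were higher and 7 lower (median 0.18), and the counts fell to 5 to 18 higher and 1 to 4 lower when 1 library was left out, and to 15 higher without the replicate block. With exact symbols only, 2 of 25 were higher and 0 lower. The share of the ribosomal list called in either direction was below the 31.9% of all genes, and below the 13.7% called higher. With no filter, 9 of 842 ribosomal genes were higher and 7 lower, with a median of 0.01, so the lean to higher values depends on the filter.

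The BAF complex remodels nucleosomes and swaps subunits as progenitors become neurons. Of its 26 genes 7 were higher, 3 without VZ 1 and 4 without VZ 3 or without the replicate block, and 3 lower (median 0.06). The number lower was 1 without OSVZ 3, VZ 1 or VZ 2, and 1 of 21 with exact symbols only. Neuronal subunits were higher. ACTL6B was at 14.2, 12 and 10.4 in VZ and 27.7, 25.2 and 32.3 in OSVZ (1.16 ± 0.15, adjusted p = 0.000761). DPF1 was at 9.66, 9.83 and 13 in VZ and 22.3, 21.1 and 32.3 in OSVZ (1.14 ± 0.18, adjusted p = 0.0019). SS18L1 was at 10.7, 8.85 and 10.1 in VZ and 17.1, 12.6 and 15 in OSVZ (0.54 ± 0.12, adjusted p = 0.00884). The progenitor form SS18 was lower at 19.3, 15.9 and 18.3 in VZ and 11.7, 11.3 and 8.23 in OSVZ (-0.74 ± 0.17, adjusted p = 0.00921), and the core subunits SMARCB1 (0.10 ± 0.10, adjusted p = 0.464) and SMARCC2 (0.18 ± 0.11, adjusted p = 0.22) were not called. Among 90 other chromatin regulators 8 were higher and 13 lower (median -0.08), with 6 and 8 lower without OSVZ 3 and VZ 2. Their share called, 23.3%, was below the 31.9% of all genes. The number higher was 3 to 5 without OSVZ 1, OSVZ 2, VZ 1, VZ 2 or VZ 3. With exact symbols only, 8 of 57 were higher and 8 lower, and the median was 0.04. CHD5, a neuronal NuRD helicase, was at 2.21, 1.03 and 2.17 in VZ and 9.55, 8.56 and 12.6 in OSVZ (2.02 ± 0.27, adjusted p = 0.000806). CHD3 was at 68.7, 55.6 and 61.7 in VZ and 135, 106 and 104 in OSVZ (0.88 ± 0.11, adjusted p = 0.000672). UHRF1, which maintains DNA methylation in dividing cells, was lower at 17.1, 17.4 and 24.5 in VZ and 12.6, 8.48 and 10.5 in OSVZ (-0.84 ± 0.17, adjusted p = 0.00538).

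Of 49 RNA-binding proteins 16 were higher and 10 lower (median 0.14), with 6 lower without VZ 2 or VZ 3. With exact symbols only, 14 of 45 were higher and 10 lower, and the median was -0.03. RBFOX1, a neuronal splicing factor, was at 5.98, 4.1 and 6.73 in VZ and 26.1, 26.4 and 26.1 in OSVZ (2.07 ± 0.20, adjusted p = 0.000321). CELF5 was at 8.72, 3.44 and 6.19 in VZ and 17.9, 17.7 and 20.7 in OSVZ (1.54 ± 0.19, adjusted p = 0.000644). In the opposite direction QKI, a splicing factor of glia and progenitors, was at 40.2, 38.3 and 39.7 in VZ and 16.9, 19.5 and 15.4 in OSVZ (-1.15 ± 0.15, adjusted p = 0.000806). MSI2, a Musashi protein of stem cells, was at 26.6, 28.6 and 30.6 in VZ and 12.9, 14.4 and 13.7 in OSVZ (-1.01 ± 0.11, adjusted p = 0.000454). ZFP36L1, which destabilises messages, was at 13.7, 14.4 and 17.7 in VZ and 3.86, 3.7 and 3.86 in OSVZ (-1.75 ± 0.16, adjusted p = 0.000263).

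**Figure D5:**
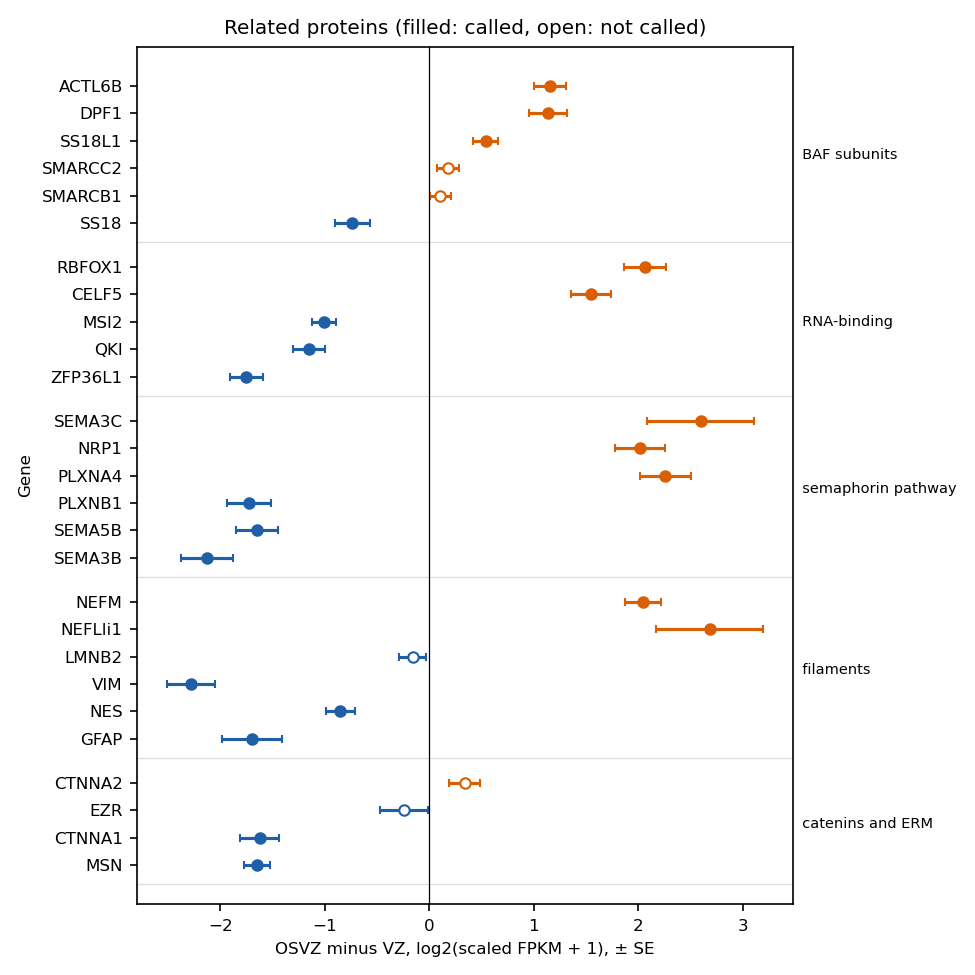
Log2 difference OSVZ minus VZ (x, ± SE from limma) for related proteins named in the text, grouped by BAF subunits, RNA-binding proteins, semaphorin pathway, filaments, catenins and ERM proteins. Filled points were called and open points were not. The neuronal subunits and neurofilaments lie to the right of 0 and the glial or progenitor members to the left.

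Stress genes, which can mark the state of the tissue, were higher in 4 of 26 cases, 2 without OSVZ 2 or VZ 3, and lower in 7, 4 without OSVZ 1 (median -0.23). DUSP1, an early response phosphatase, was higher at 6.69, 6.08 and 5.75 in VZ and 9.37, 10.8 and 8.21 in OSVZ (0.54 ± 0.10, adjusted p = 0.00344). DDIT4, a brake of mTOR signalling, was lower at 18.4, 22.4 and 24 in VZ and 10.5, 11.1 and 12.3 in OSVZ (-0.87 ± 0.12, adjusted p = 0.00095). The chaperone HSPB1 was lower at 13.6, 27.5 and 14.1 in VZ and 3.62, 6.44 and 7.47 in OSVZ (-1.48 ± 0.29, adjusted p = 0.00478). Antigen presentation and interferon genes were lower in 8 of 16 cases with 0 higher (median -0.54). IFIH1, a sensor of viral RNA, was at 2.94, 6.2 and 5.16 in VZ and 0.555, 1.29 and 1.08 in OSVZ (-1.52 ± 0.17, adjusted p = 0.000493). IRF2 was at 6.08, 8.51 and 8.83 in VZ and 3.21, 2.98 and 2.81 in OSVZ (-1.13 ± 0.14, adjusted p = 0.000627), while B2M, the light chain of MHC class I, was not called (-0.63 ± 0.27, adjusted p = 0.0989). In the microglial list 1 of 12 genes was lower and 0 were higher. The remaining lists held few tested genes. Meningeal genes were lower in 5 of 9 cases, and in 3 of 16 with no filter. Endothelial and mural genes were higher in 2 (1 without OSVZ 3, any VZ library or the replicate block) and lower in 2 of 18. Gap junction and pannexin genes were higher in 1 (0 without any VZ library) and lower in 1 of 6. Erythroid genes were lower in 1 of 3, a call kept only without VZ 3 when 1 library was left out. Of 3 Cajal-Retzius genes 0 were called.

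The order of the 4 layers was read for the called genes, without a test. Of the 1937 genes higher in OSVZ than in VZ, CP had the highest mean in 1346, OSVZ in 549 and ISVZ in 42, and the ISVZ mean lay between VZ and OSVZ in 1757. Of the 2568 genes lower in OSVZ, CP had the lowest mean in 1944, OSVZ in 451 and ISVZ in 173, and ISVZ lay between in 2171. Over all 14101 genes OSVZ had the highest mean in 2031 and the lowest in 1853. How often CP or ISVZ had the highest or lowest mean, or ISVZ lay between, was not counted over all genes. The counts for CP and ISVZ therefore have no background share beside them. Choosing genes by OSVZ against VZ also leaves VZ out of the top place among higher genes and out of the bottom place among lower genes. Among 1603 higher genes with a symbol that is no copy, 47 had every OSVZ library above all 9 others. Choosing among genes called higher in OSVZ favours this order, and the share over all tested genes was not counted. The 47 genes were chosen after their values were seen, and their levels are a description. They included OLIG1, PDGFRA, CNTN2, NRP1 and PLXNA4. CP means were 3.52, 1.23, 5.39, 4.75 and 13.1, below the OSVZ means of 28.1, 7.44, 13.8, 16.8 and 23.4. FNDC5, the precursor of irisin, was at 5.21, 3.51 and 2.86 in VZ and 13.3, 31.9 and 29.4 in OSVZ, with 7.54 in CP. MCF2L, an exchange factor for small GTPases, was at 6.46, 5.46 and 5.93 in VZ and 27, 24.8 and 25 in OSVZ, with 16.5 in CP.

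Noncoding loci were called less often. Of 1158 antisense genes 87 were higher and 154 lower (20.8% called), and of 528 intergenic noncoding genes 66 were higher and 69 lower (25.6%), against 33.3% of 12394 annotated genes. Whether strand was used in counting is not given here, so the values of antisense genes and their partners are uncertain.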

How the data were processed

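For every library the authors deposited FPKM per gene, with a lower and an upper bound, per the file headers. The submitters' processing notes list HISAT2 and Cufflinks. Tool versions, genome build, annotation and strand setting were not given in the sources used here. Coordinates are printed as deposited. FPKM of the 360 gene IDs on more than 1 row were summed, and 4 IDs with a failed status were left out. Each library was scaled by its median ratio to the mean profile over 10200 genes expressed in all libraries. Genes with a scaled FPKM of at least 1 in at least 3 of the 12 libraries were tested on log2(scaled FPKM + 1) with limma 3.58.1 in R 4.3.3, two-sided, with layer and replicate number as terms, all 4 layers in the fit (6 residual degrees of freedom) and Benjamini-Hochberg adjustment over all 14101 genes. Gene-level FPKM are not counts, so no count test was run.

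The comparison, the gene lists and the tests were chosen with earlier results of these data known. Lists were matched by symbol, and annotated copies (symbols ending in li and a number) were counted as members, since reads of near-identical copies may be divided between them. Named genes were drawn from the 15 largest differences in each direction among called genes without overlap, from up to 4 called genes per direction and up to 2 abundant uncalled genes of each list, and from 13 checks of the layer labels. BCL11A, the SOX members beyond SOX2, FNDC5 and MCF2L were chosen after their values were seen. In simulated libraries of 13585 genes the same code recovered 83 of 100 genes changed 2-fold and 98 of 100 changed 4-fold, and called 8 unchanged genes. Only 200 genes were changed, all with mean levels well above the filter, and the noise was normal. The rates therefore do not cover genes near the filter, or data in which 31.9% of genes are called. Relative depth comes from the deposited bounds, and total counts are not known. Alternatives were no replicate block, exact symbols only in the lists, the 6 libraries alone, other scalings, a pseudocount of 0.1, no filter, a filter of 5 and libraries left out. The results for gene lists under single left-out libraries, other scalings and filters were added after seeing the data. The results of some genes chosen by the rule are not reported here.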

Additional observations from a re-analysis of the deposited data

How the results depend on the processing

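Without the replicate block 3935 genes were called (1650 higher, 2285 lower). Libraries with the same replicate number deviated together beyond r = 0.1 in 16 of 18 pairs of libraries (0.063 to 0.425 between VZ and OSVZ), and 10 of 12 libraries correlated best with their own number in every other layer. As not every pair passed, the samples are taken to share only a number, and the block was kept because the comparison specifies it. Of the 4505 genes called with the block, 3877 were also called without it. Among the 188 named genes put through the alternatives, the block decided the call of 1, FZD1. Other genes drawn by the naming rule, not reported here, also lost their call without it. With 1 library left out, 2859 to 3564 genes were called, 1279 to 1608 higher and 1580 to 2111 lower, and with VZ 1 and VZ 2 left out 645 were called (211 and 434). With no filter 1276 genes were higher, as 41048 genes were tested, and with a filter of 5, which left 8799 genes, 1663 were lower. The other settings gave 3793 to 4689 called genes. Higher genes made up 43.0% of calls, and 51.0% after quantile normalisation. Gene lists with mostly higher members numbered 17 and those with mostly lower members 32; with 1 library left out they numbered 17 to 19 and 31 to 34, and 13 lists had mostly higher members with VZ 1 and VZ 2 left out. With exact symbols only, the median changed sign for the lists of chromatin regulators (-0.079 to 0.038) and RNA-binding proteins (0.138 to -0.027). Every gene called both here and in an alternative kept its sign. Of 160 named called genes, 96 kept their call in every alternative they entered, and 55 lost it only with VZ 1 and VZ 2 left out. SOX10 is not counted among these 160 genes. Among the 188 genes, signs reversed only for uncalled genes. With VZ 1 and VZ 2 left out, these were GPI (-0.021), GRIA1 (-0.201), INSM1 (-0.136), RND3 (0.076) and SMARCB1 (-0.027). With 1 library left out, GRIA1 ranged from -0.077 (without VZ 2) to 0.24 and INSM1 from -0.047 (without OSVZ 2) to 0.095, and INSM1 was at -0.009 with FPKM as deposited. The cause of these changes was not tested. Depth, known only in relative terms, limits the levels near 1 FPKM.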
